A study of Mus musculus with 32 samples.

Results

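The liver releases glucose into the blood and skeletal muscle takes it up, and the RNA of these tissues was compared gene by gene in wild-type mice. The comparison used 8 of the 32 RNA sequencing libraries of the series, 4 of liver and 4 of skeletal muscle, taken by their tissue and genotype labels. All mice were male C57BL/6J, and the wild-type groups (WT) carried no deletion. Libraries labelled Mut, given in the labels as a knockout of the small membrane protein gene Smim30, supplied 4 more of liver and 4 of muscle as a separate set for the same tissue contrast. The RNA of Smim30 (2610001J05Rik in the annotation) was present in them, at means of 21.1 TPM in liver and 25.9 TPM in muscle against 23.2 and 34.3 TPM in WT, so gene-level RNA does not check that label. Brown adipose tissue and heart were also sequenced and are used here to set reference levels. Each tissue was described as coming from 4 individual males and was frozen in liquid nitrogen after sacrifice. The labels give neither the age, nor the feeding state, nor which muscle was sampled. Feeding state bears on many of the genes below, because fasting and feeding are known to switch them in liver.

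Values are TPM, a unit in which every library sums to the same total, so that a value is a share of that library's RNA corrected for transcript length. Differences are liver minus muscle on the log2(TPM + 1) scale, so a positive value means higher in liver, and because of the added 1 the difference understates the ratio for genes of a few TPM. A gene was called when its adjusted p in limma, a linear model fitted over all genes, was under 0.05. Means are given with SD over the 4 libraries of a group (n = 4 throughout). Of the 12367 genes whose mean over the 8 libraries reached 1 TPM, 82.3% were called, 45.1% higher in liver and 37.1% higher in muscle. A call alone is therefore the common case, and sizes and levels carry more information than counts. Likewise, the liver and muscle libraries did not overlap for 78.2% of the tested genes. At least a 2-fold difference was called for 26.6% of genes higher in liver and 19.4% higher in muscle. The 8 libraries each held between 11574 and 11906 genes at 1 TPM or more. The genes encoded by the mitochondrial genome made up 11.7% ± 1.81 of liver TPM and 27.2% ± 2.02 of muscle TPM, and 7 nuclear copies of the same sequences, such as Gm28661, took another 5.34% ± 0.234 and 12.5% ± 0.647. These shares lower all other TPM values of muscle relative to liver. With the mitochondrial and the 10 most abundant other genes left out of the total, the median difference over all genes moved from 0.12 to -0.24, and the share of calls that were higher in liver from 54.9% to 42.2% (4408 genes higher in liver and 6038 higher in muscle). With median-ratio scaling that share was 50.4%.

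The tissues matched their labels. Alb, the main protein of blood plasma, was at 57415 ± 4705 TPM in liver, and all 10 hepatocyte markers were higher there. Acta1, the actin of skeletal muscle fibres, was at 17741 ± 2056 TPM in muscle, and all 10 myofibre markers were higher there. Myh4, the heavy chain of the fastest fibres, was at 11666 ± 1647 TPM in muscle, against 762 ± 166 TPM for Myh1 and 623 ± 177 TPM for Myh2.

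In the 8 WT libraries, markers of the other tissues were also found at a low level, the origin of which was not tested. Hepatocyte markers read 1.03% to 1.54% of their liver level in muscle, and myofibre markers read 1.3% to 1.77% of their muscle level in liver. Alb, for example, was at 769 ± 28.1 TPM in muscle and Acta1 at 273 ± 10.3 TPM in liver. Ucp1, the uncoupling protein of brown fat, was at 57.4 ± 4.33 TPM in liver and 62.7 ± 4.48 TPM in muscle, which is 1.87% and 2.04% of its level in brown fat. Myh6, the heart myosin, read 1.55% of its heart level in liver and 1.74% in muscle. The level was not the same for all markers, from 0.823% for Nppa to 1.59% for Tnnt2 among 6 heart markers in liver. Among 6 brown fat markers, Elovl3 and Ppara were higher in liver than in brown fat (216% and 155% of its level). Ppara and Cox7a1 read 12.8% and 41.4% of their brown fat level in muscle. Below, a tissue is called within the floor for a gene when its mean was at most 2% of the highest mean among the 4 WT tissues. This limit counts the highest tissue alone. For a gene high in several tissues, a level a little above the limit is not thereby told apart from the floor. Of the called genes, 628 were higher in liver with muscle within the floor and 300 higher in muscle with liver within it. For these genes the level in the lower tissue cannot be told apart from the floor, and the difference is a minimum. At a difference of 5 or more, 348 of 378 genes higher in liver and 102 of 136 higher in muscle had the other tissue within the floor.

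**Figure D1:**
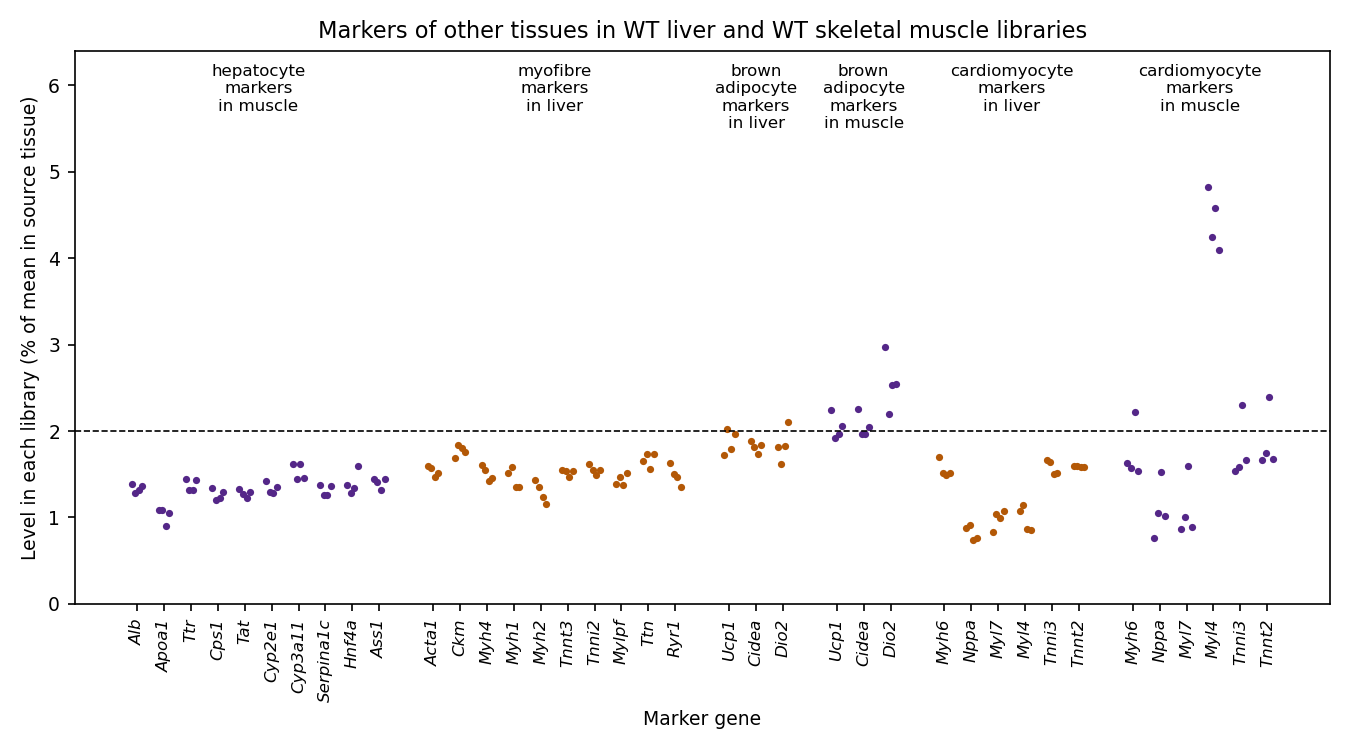
Each point is 1 WT library, orange for liver and purple for skeletal muscle, and gives the level of a marker gene as a percentage of its mean in the WT tissue it marks (liver, skeletal muscle, brown adipose tissue or heart). The dashed line is at 2%. Of 6 brown adipocyte markers only Ucp1, Cidea and Dio2 are drawn. Those not drawn, Elovl3, Ppara and Cox7a1, averaged 216%, 155% and 3.93% in liver and 5.17%, 12.8% and 41.4% in muscle. Hepatocyte markers in muscle lay between 1.03% and 1.54% on average and myofibre markers in liver between 1.3% and 1.77%, while Myl4 averaged 4.44% in muscle.

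As background, the liver keeps blood glucose up between meals by breaking down glycogen and by making glucose from lactate, alanine and glycerol, which is called gluconeogenesis. Both routes end at glucose 6-phosphatase, an enzyme that frees glucose so that it can leave the cell. Skeletal muscle has little of that enzyme, so the glucose it takes up under insulin or during contraction is stored as glycogen or burned in the same fibre, and the lactate and alanine it releases travel back to the liver. The lists below hold the genes of these steps. Of 146 genes in 11 glucose lists, 140 were tested, 53 were higher in liver, 74 were higher in muscle and 13 were not called. Of the genes not called, Nr3c1, Mpc2, Irs2, Prkaa1, Stk11 and Slc38a2 were called higher in muscle when the libraries were rescaled as above. At least 2-fold differences were called for 40 genes higher in liver and 56 higher in muscle. Their share higher in muscle was above that of all genes, and their median difference was -0.43 against 0.12 over all genes. Muscle was within the floor for 9 of the genes higher in liver, and liver for 7 of the genes higher in muscle. Of those described below, the former include Slc2a2, G6pc, Pklr, Fbp1, Gys2, Ppp1r3b and Gcgr. The latter were Eno3, Pgam2, Pygm, Phkg1, Ppp1r3a, Slc16a3 and Prkab2. Genes outside the glucose lists are marked only in part.

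**Figure D2:**
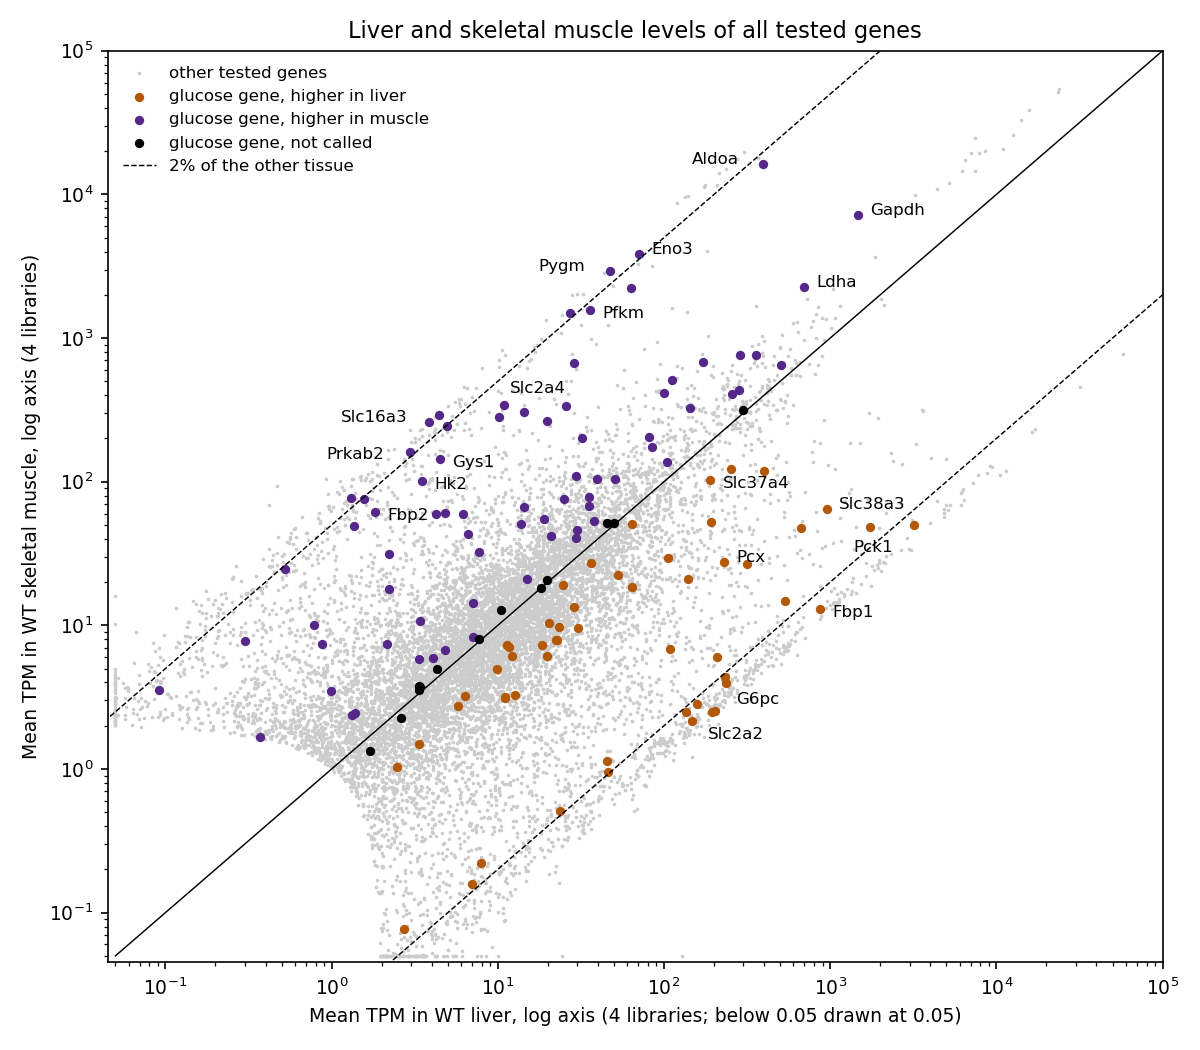
Each point is a tested gene, with its mean TPM over 4 WT liver libraries on the x axis and over 4 WT skeletal muscle libraries on the y axis, both on log axes. Of the glucose genes 53 (orange) were higher in liver, 74 (purple) higher in muscle and 13 (black) not called, and the dashed lines mark 2% of the other tissue, with 628 and 300 called genes within the floor.

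The promoters of the genes that mark each side are shown because they are the sequences beside the start sites of genes with some of the largest differences below, and because motif counts over all such promoters follow. The sequences are from RefSeq on GRCm38.p6 and give the 250 bases before the start site, 5′ to 3′ along the gene. Capitals mark matches, on either strand, to a TATA box (TATAAA), an E-box of the form bound by MyoD-type muscle factors (CAGCTG), the cAMP response element (TNACGTCA), and the MEF2 and HNF4 sites. G6pc, the catalytic subunit of glucose 6-phosphatase (chr11:101367466-101367715, plus strand), held a TATA box. Pck1, which makes phosphoenolpyruvate for gluconeogenesis (chr2:173152823-173153072, plus strand), held a cAMP response element and an E-box. Slc2a2, the glucose transporter GLUT2 (chr3:28697653-28697902, plus strand), held 1 E-box. Pygm, the glycogen phosphorylase of muscle (chr19:6384158-6384407, plus strand), held 2 E-boxes. Pgam2, the phosphoglycerate mutase of muscle (chr11:5803797-5804046, minus strand), held an E-box and a MEF2 site.
G6pc: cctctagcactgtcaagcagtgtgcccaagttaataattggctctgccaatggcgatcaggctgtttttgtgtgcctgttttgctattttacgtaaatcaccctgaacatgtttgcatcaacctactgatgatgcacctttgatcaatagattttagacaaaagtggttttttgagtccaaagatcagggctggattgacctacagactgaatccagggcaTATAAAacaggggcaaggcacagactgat
Pck1: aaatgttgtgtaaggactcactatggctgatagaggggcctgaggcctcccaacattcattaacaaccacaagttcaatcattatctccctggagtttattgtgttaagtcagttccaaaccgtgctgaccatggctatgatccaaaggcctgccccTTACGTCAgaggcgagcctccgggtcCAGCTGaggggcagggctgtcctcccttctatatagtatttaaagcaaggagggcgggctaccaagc
Slc2a2: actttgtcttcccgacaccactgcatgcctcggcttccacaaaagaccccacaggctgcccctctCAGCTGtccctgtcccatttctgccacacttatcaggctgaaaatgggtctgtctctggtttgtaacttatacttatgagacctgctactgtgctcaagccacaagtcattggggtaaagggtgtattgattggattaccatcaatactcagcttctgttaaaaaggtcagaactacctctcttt
Pygm: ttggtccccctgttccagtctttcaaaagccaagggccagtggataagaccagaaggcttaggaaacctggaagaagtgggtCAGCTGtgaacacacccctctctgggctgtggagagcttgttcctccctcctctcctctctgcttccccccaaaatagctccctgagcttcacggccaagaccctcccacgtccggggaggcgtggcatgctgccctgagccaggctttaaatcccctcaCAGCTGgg
Pgam2: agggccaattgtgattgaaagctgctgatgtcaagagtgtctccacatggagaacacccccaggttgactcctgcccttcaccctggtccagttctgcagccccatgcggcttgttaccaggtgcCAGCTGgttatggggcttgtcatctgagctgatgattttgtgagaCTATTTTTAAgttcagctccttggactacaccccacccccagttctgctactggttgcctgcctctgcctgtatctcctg

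Over whole sets of promoters, the E-box was found in 34.1% of the 126 promoters of genes higher in muscle by a log2 difference of at least 5. It was found in 10.6% of the 350 promoters of genes higher in liver by as much, and in 13% of all 32851 promoters. The MEF2 site was found in 12.7%, 2.29% and 2.92% of the same sets. The TATA box was found in 17.5%, 17.7% and 12.4%. The cAMP response element was found in 2.38%, 0.857% and 2.52%, and the HNF4 site in 0%, 0.571% and 0.0731%. A match gives the letters only and no test was made of these shares. No matches to different motifs overlapped in the promoters printed here.

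Glucose enters the tissues through different transporters. Slc2a2, the high-capacity transporter GLUT2 that lets glucose pass both ways (chromosome 3, 28697903 to 28731359, plus strand), was at 217, 234, 168 and 162 TPM in the liver libraries and at 1.82, 2.66, 2.70 and 2.83 TPM in the muscle libraries. The difference was 5.80 (SE 0.14, adjusted p = 3.17e-11), with muscle within the floor. Slc2a4, the insulin-responsive transporter GLUT4 (chromosome 11, 69942539 to 69948188, minus strand), showed the opposite pattern, with 10.6, 12.5, 8.93 and 11.6 TPM in liver and 327, 332, 324 and 379.6 TPM in muscle. Its difference was -4.85 (SE 0.10, adjusted p = 9.75e-12), and its liver level of 3.2% of muscle lay above the floor limit. Brown fat (122 TPM) and heart (183 TPM) also held Slc2a4, and the part of the floor in its liver level was not tested. No liver library overlapped a muscle library for either gene, as for 78.2% of all tested genes. Slc2a9, which also carries urate, was at 23.6 ± 1.85 TPM in liver and 0.513 ± 0.260 TPM in muscle. Slc2a5, the fructose transporter, was at 7.02 ± 1.42 and 0.158 ± 0.132 TPM. Slc2a3, a high-affinity glucose transporter, was at 0.302 ± 0.214 TPM in liver and 7.82 ± 1.42 TPM in muscle, and Slc2a12 at 0.0914 ± 0.0332 and 3.54 ± 0.177 TPM. The general transporter Slc2a1 was low in both tissues, at 6.38 ± 0.518 and 3.20 ± 0.622 TPM. In all, 5 of 8 tested transporters were higher in liver and 3 in muscle, at least 2-fold for 3 on each side.

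The first step inside the cell, phosphorylation, and its reversal were described by 7 tested genes, 4 higher in liver and 3 in muscle. Hk2, the hexokinase of insulin-sensitive tissues, was at 3.67, 3.79, 3.03 and 3.51 TPM in liver and at 101, 106, 96.2 and 101 TPM in muscle (difference -4.50, SE 0.07, adjusted p = 2.06e-12). The ranges of the tissues were far apart. Hk1 was low in both, at 1.38 ± 0.180 and 2.46 ± 0.176 TPM.

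G6pc was at 211, 173, 187 and 369 TPM in liver and at 3.90, 3.92, 3.91 and 4.18 TPM in muscle. The difference was 5.50 (SE 0.20, adjusted p = 7.93e-10), and the muscle level was 1.69% of liver, within the floor. Liver library 4 was highest, and the lowest liver library, at 173 TPM, was far above every muscle library. The related subunit G6pc3, found in most tissues, had the opposite direction, with 7.71 ± 1.30 TPM in liver and 32.3 ± 3.64 TPM in muscle (difference -1.94). Slc37a4, which carries glucose 6-phosphate into the endoplasmic reticulum for both phosphatases, differed less in sum, at 190.0 ± 34.4 TPM in liver and 103 ± 12.2 TPM in muscle (difference 0.86, adjusted p = 0.000186). Its transcripts did differ, as described below.

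**Figure D3:**
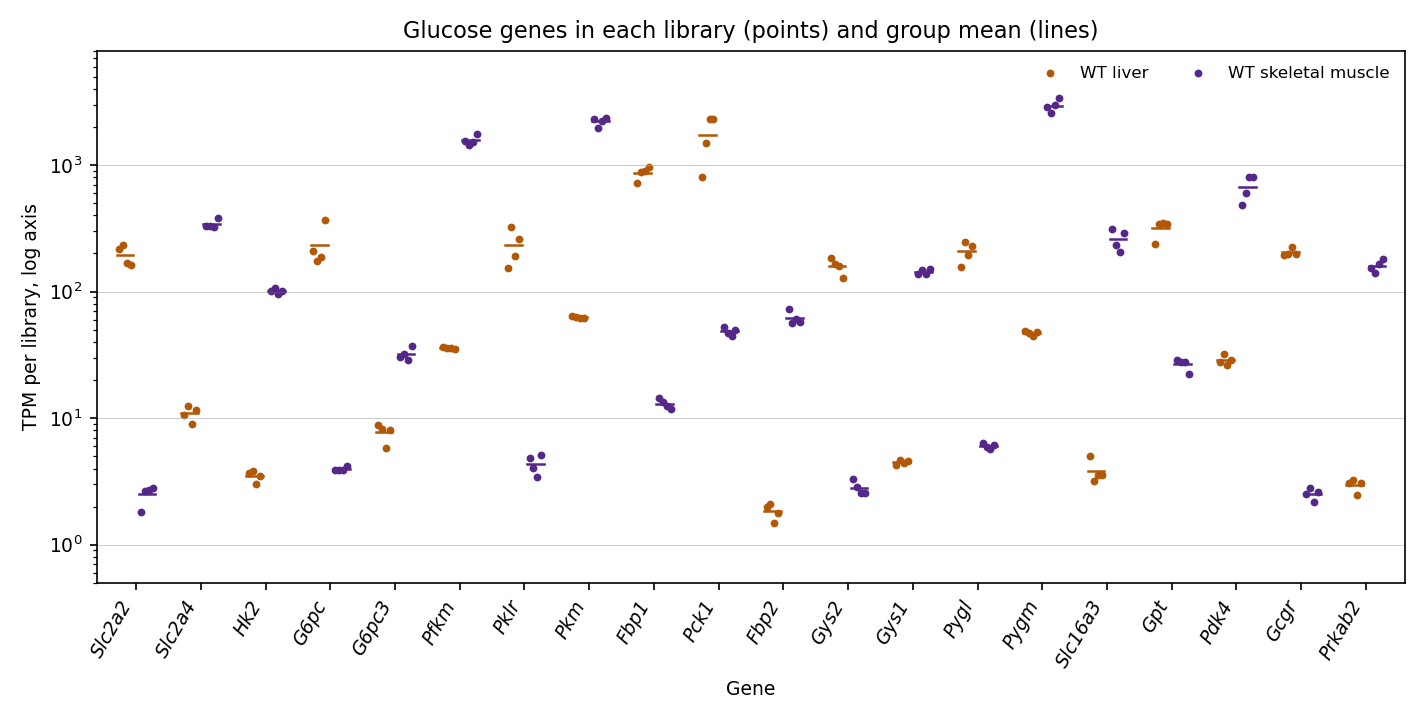
TPM on a log axis in each of the 4 WT liver libraries (orange points) and the 4 WT skeletal muscle libraries (purple points) for 20 glucose genes, with group means as lines. For each gene shown the libraries of one tissue all lie above those of the other, as for Slc2a2 (162 TPM or more in liver, 2.83 TPM or less in muscle) and Pygm (48.6 TPM or less in liver, 2557 TPM or more in muscle). The same holds for 78.2% of all tested genes.

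Of 17 tested genes of glycolysis, 11 were higher in muscle and 6 in liver, with a median difference of -1.70. The 6 higher in liver were mostly the liver isoenzymes. Pklr, the pyruvate kinase of liver, was at 154, 321, 192 and 259 TPM in liver and 4.36 ± 0.770 TPM in muscle (difference 5.40, SE 0.21). Pgam1 was at 139 ± 13.6 and 21.0 ± 0.935 TPM, Eno1 at 399 ± 58.4 and 118 ± 5.30 TPM, and Pfkl, the phosphofructokinase subunit of liver, at 18.5 ± 1.47 and 7.30 ± 0.411 TPM. Aldoc, another of the 6, was low in both tissues.

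The muscle isoenzymes reached far higher levels. Aldoa was at 391, 391, 391 and 402 TPM in liver and at 15800.0, 15393, 16240.3 and 17708 TPM in muscle (difference -5.36, SE 0.08, adjusted p = 1.04e-12), and it was among the 10 most abundant nuclear genes of muscle. Eno3 was at 3834 ± 353 TPM in muscle and 70.8 ± 2.54 TPM in liver, which is 1.85% of muscle and within the floor. Pgam2 was at 1487 ± 85.7 TPM in muscle and 27.0 ± 0.912 TPM in liver, 1.82% of muscle. Pkm, the other pyruvate kinase gene, was at 2220.2 ± 174 TPM in muscle and 63.0 ± 1.07 TPM in liver (difference -5.11). Pfkm, the muscle phosphofructokinase, was at 1565 ± 143 TPM in muscle and at 36.5, 35.9, 35.7 and 35.4 TPM in liver (difference -5.40). The liver level of Pfkm was 2.29% of muscle, just above the floor limit, and its liver libraries differed by little more than 1 TPM.

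Further glycolytic enzymes were higher in muscle. Gapdh was at 1469 ± 205 TPM in liver and 7171 ± 902 TPM in muscle (difference -2.29). Gapdh shares 69.9% of its 31-base words with the pseudogene Gm12671, so its level is uncertain by what was assigned there. Gpi1 was at 112 ± 10.4 and 514 ± 65.7 TPM, Pgk1 at 286 ± 22.1 and 763 ± 56.1 TPM, and Ldha, the lactate dehydrogenase of muscle type, at 695 ± 78.3 and 2262 ± 198 TPM. Ldhb, the heart-type subunit, and Gbe1, the glycogen branching enzyme, were not analysed here.

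Fructose 2,6-bisphosphate is the signal that switches between glycolysis and gluconeogenesis, and the enzymes that make and remove it were mostly higher in muscle (4 of 5). Pfkfb3, an isoform with high kinase activity, was at 105, 38.2, 58.5 and 37.2 TPM in muscle and at 4.53, 5.44, 7.15 and 7.5 TPM in liver (difference -2.98, SE 0.30, adjusted p = 3.64e-06). Muscle library 1 lay well above the other muscle libraries, and all 4 muscle libraries lay above liver. Pfkfb4 was at 24.6 ± 1.85 TPM in muscle and 0.523 ± 0.0625 TPM in liver. Tigar, a phosphatase that acts on the same sugar phosphate, was at 59.3 ± 5.64 and 4.22 ± 0.526 TPM. Pfkfb1, the isoform known from liver, was present in both tissues, at 37.7 ± 8.41 TPM in liver and 53.1 ± 1.75 TPM in muscle (difference -0.51, adjusted p = 0.00487). Pfkfb2 was the gene higher in liver (difference 0.54, adjusted p = 0.0136), but liver library 1 at 7.54 TPM lay within the muscle range, and with rescaling the call was lost.

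Of the 7 gluconeogenesis genes, 5 were higher in liver, Fbp2 was higher in muscle and Pck2 was not called. Fbp1, the fructose bisphosphatase of liver, was at 722, 887, 895 and 963 TPM in liver and at 14.4, 13.3, 12.5 and 11.9 TPM in muscle (difference 5.94, SE 0.10, adjusted p = 2.06e-12, muscle within the floor). Pck1 was at 809, 1494, 2298 and 2328 TPM in liver and at 52.2, 47.5, 44.9 and 49.5 TPM in muscle (difference 5.01, SE 0.29, adjusted p = 3.55e-08). Its liver libraries spread almost 3-fold, yet the lowest was above every muscle library, and its muscle level was 2.8% of liver. Brown fat held Pck1 at 1464 TPM and heart at 39.2 TPM. The part of the floor in the muscle level of Pck1 was not tested. Pcx, pyruvate carboxylase, which feeds both gluconeogenesis and lipid synthesis, was at 229 ± 48.0 and 27.7 ± 0.816 TPM (difference 2.98), with muscle at 12.1% of liver and so clearly above the floor. Fbp2, the muscle fructose bisphosphatase, was at 1.83 ± 0.260 TPM in liver and at 73.4, 56.6, 60.5 and 57.0 TPM in muscle (difference -4.47, SE 0.10, adjusted p = 2.26e-11). Pck2, the mitochondrial form of phosphoenolpyruvate carboxykinase, was at 2.60 ± 0.599 and 2.27 ± 0.222 TPM (difference 0.13, 95% confidence interval -0.16 to 0.42, adjusted p = 0.379).

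Glycogen is made and broken down in both tissues, and its genes were split by isoform. Of 24 tested, 16 were higher in muscle, 7 in liver, and Pgm2 was not called. The synthases were exchanged, with Gys2 at 159 ± 23.9 TPM in liver and 2.82 ± 0.349 TPM in muscle, and Gys1 at 4.49 ± 0.178 TPM in liver and 144 ± 7.29 TPM in muscle. Their differences were 5.38 (SE 0.12) and -4.72 (SE 0.07). The phosphorylases were exchanged as well. Pygl was at 156, 248, 195 and 231 TPM in liver and 6.03 ± 0.322 TPM in muscle (difference 4.87, SE 0.13). Pygm was at 48.6, 47.5, 44.6 and 47.9 TPM in liver and at 2856, 2557, 2995 and 3391 TPM in muscle (difference -5.93, SE 0.09, adjusted p = 1.30e-12), with liver at 1.6% of muscle and within the floor.

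The kinase that switches phosphorylase on was higher in muscle for the subunits Phka1 (245 ± 23.5 TPM against 4.97 ± 0.318 in liver), Phkb (307 ± 19.6 against 14.3 ± 1.16) and Phkg1 (293 ± 14.3 against 4.40 ± 0.467). The subunits Phka2 (11.0 ± 0.599 TPM in liver, 3.14 ± 0.154 in muscle) and Phkg2 (22.8 ± 4.14 and 7.93 ± 0.278) were higher in liver, at lower levels. Glycogen-targeting subunits, which bring protein phosphatase 1 to glycogen, also differed in kind. Ppp1r3b was at 95.5, 151, 115 and 184 TPM in liver and 2.48 ± 0.206 TPM in muscle. Ppp1r3c was at 25.6 ± 3.31 TPM in liver and at 175, 312, 311 and 548 TPM in muscle, with muscle library 4 the highest. Ppp1r3a, the large subunit of striated muscle, was at 1.31 ± 0.0827 and 76.9 ± 4.68 TPM, with liver within the floor. Gyg, which primes new glycogen, was at 10.1 ± 0.790 TPM in liver and 282 ± 11.1 TPM in muscle. Epm2a, the laforin phosphatase, was at 4.81 ± 0.794 and 60.5 ± 1.95 TPM. Stbd1, which anchors glycogen to membranes, was 1 of the 7 higher in liver, at 63.9 ± 4.42 and 18.4 ± 3.28 TPM.

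The genes of lactate, pyruvate and alanine exchange showed a muscle side and a liver side. Slc16a3, the lactate exporter of glycolytic fibres, was at 312, 232, 205 and 290.1 TPM in muscle and at 5.05, 3.18, 3.54 and 3.58 TPM in liver (difference -5.75, SE 0.15, adjusted p = 6.25e-11, liver within the floor). Slc16a7, a high-affinity importer, was at 45.2 ± 7.11 TPM in liver and 1.14 ± 0.266 TPM in muscle (difference 4.43). Slc16a1, the general transporter, differed by -0.47 (14.9 ± 2.10 and 20.9 ± 1.99 TPM). Gpt, the alanine aminotransferase that turns alanine into pyruvate, was at 239.7, 343, 346 and 341 TPM in liver and 26.7 ± 2.95 TPM in muscle (difference 3.51, SE 0.13). Gpt2, its mitochondrial form, was at 253 ± 42.4 and 122 ± 19.6 TPM. The amino acid importers Slc38a3 (953 ± 87.9 and 64.1 ± 9.23 TPM) and Slc38a4 (666 ± 76.9 and 47.5 ± 5.86 TPM) were higher in liver, while Slc38a2 was at 45.6 ± 15.0 and 51.7 ± 7.30 TPM and was not called (adjusted p = 0.324). Mpc1, a subunit of the mitochondrial pyruvate carrier, differed by -0.37, and its partner Mpc2, at 298 ± 32.1 and 318 ± 13.0 TPM, was not called (adjusted p = 0.291).

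Pyruvate dehydrogenase, which commits pyruvate to oxidation, was higher in muscle, as 9 of its 11 tested genes, all at least 2-fold. Pdha1, the catalytic subunit, was at 99.8 ± 9.91 TPM in liver and 413 ± 8.26 TPM in muscle (difference -2.04, SE 0.08). Dlat was at 39.5 ± 4.20 and 104 ± 3.36 TPM. The kinases that inhibit the complex were led in muscle by Pdk4, which is induced by fasting and fat use, at 484, 605, 799 and 803 TPM, against 28.0, 32.2, 26.1 and 28.6 TPM in liver (difference -4.47, SE 0.15, adjusted p = 5.56e-10). Pdk2 was at 206 ± 12.0 TPM in muscle and 81.0 ± 8.46 TPM in liver. The phosphatase Pdp1, which reactivates the complex and responds to calcium, was at 49.0 ± 5.14 TPM in muscle and 1.37 ± 0.101 TPM in liver. Only Pdk1 (53.1 ± 9.04 and 22.4 ± 1.94 TPM) and the phosphatase Pdp2 (11.0 ± 1.86 and 3.19 ± 0.773 TPM) were higher in liver among these 11 genes.

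Of 22 tested genes of insulin signalling, 8 were higher in liver, 11 in muscle and 3 were not called, and at least 2-fold differences were called for 2 and 5. Insr, the insulin receptor, was at 28.7 ± 4.09 TPM in liver and 13.5 ± 0.391 TPM in muscle (difference 1.02). Akt2, the kinase form tied to glucose uptake, was at 50.5 ± 3.28 and 104 ± 3.90 TPM (difference -1.02). Irs1 was higher in muscle (3.35 ± 0.410 and 5.84 ± 1.81 TPM), and Irs2 was not called (4.31 ± 0.452 and 4.98 ± 0.528 TPM, adjusted p = 0.121). Larger differences were found in proteins that hold GLUT4 vesicles inside the cell. Tbc1d1 was at 1.93, 2.49, 1.83 and 2.55 TPM in liver and at 40.3, 30.2, 22.9 and 32.9 TPM in muscle (difference -3.33, SE 0.16, adjusted p = 6.79e-09), and Tbc1d4 was at 2.21 ± 0.104 and 17.9 ± 2.48 TPM. The adaptor Grb10 was at 0.873 ± 0.0498 and 7.38 ± 1.12 TPM. Foxo1 was higher in liver (9.93 ± 1.29 and 4.97 ± 1.32 TPM) and Foxo4 in muscle (14.4 ± 1.38 and 66.8 ± 5.31 TPM).

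Of 19 tested genes of glucagon, adrenergic and glucocorticoid signalling, 9 were higher in liver, 6 in muscle and 4 were not called. Gcgr, the glucagon receptor, was at 194, 198, 227 and 199 TPM in liver and at 2.50, 2.83, 2.19 and 2.60 TPM in muscle (difference 5.86, SE 0.08, adjusted p = 9.75e-13), 1.24% of liver and within the floor. Adra1b, an adrenaline receptor that acts through calcium, was at 46.0 ± 4.36 and 0.949 ± 0.136 TPM. Nr3c1, the glucocorticoid receptor, was at 19.8 ± 1.86 and 20.7 ± 0.947 TPM and was not called (difference -0.06, adjusted p = 0.473). Hsd11b1, which activates glucocorticoids inside the cell, was at 531 ± 22.2 TPM in liver and 14.7 ± 1.04 TPM in muscle (difference 5.09). The coactivator Crtc2 (difference 1.2) and the factor Klf15 (1.85) were higher in liver, and Ppargc1a was higher in muscle (3.42 ± 0.472 and 10.8 ± 0.539 TPM). The catalytic subunit Prkacb was at 18.2 ± 1.40 and 18.1 ± 1.78 TPM.

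The AMP-activated kinase, which senses low energy and is built of an alpha, a beta and a gamma subunit, had different subunits in the tissues. Prkab2 was at 3.08, 3.22, 2.49 and 3.09 TPM in liver and at 155, 139, 166 and 180.4 TPM in muscle (difference -5.34, SE 0.10, adjusted p = 3.68e-12). Prkag3, a gamma subunit known from fast fibres, was at 1.56 ± 0.266 and 75.2 ± 12.9 TPM. Prkab1 (19.8 ± 1.16 and 6.11 ± 0.809 TPM) and Prkag2 (22.5 ± 2.09 and 7.92 ± 1.32 TPM) were higher in liver. Prkaa2 was at 13.8 ± 0.653 and 50.5 ± 2.63 TPM, while Prkaa1 (3.35 ± 0.254 and 3.81 ± 0.315 TPM) and the upstream kinase Stk11 (50 ± 6.32 and 51.8 ± 1.16 TPM) were not called.

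The exchange of isoenzymes can be put on a scale that does not depend on library scaling, as the share of a family's summed TPM held by each member. In 19 of 23 families the member with the largest share differed between liver and muscle. Hk2 held 91.5% ± 1.16 of hexokinase TPM in muscle and 3.13% in liver. Slc2a2 held 91.6% ± 1.45 among the transporters Slc2a1 to Slc2a4 in liver, and Slc2a4 held 96.2% ± 0.146 in muscle. Gys2 held 97.2% ± 0.496 in liver and Gys1 98.1% ± 0.292 in muscle, and Cpt1a and Cpt1b, which admit fatty acids to mitochondria, held 92.6% ± 1.40 in liver and 96.0% ± 0.509 in muscle. The shares of Fbp1 were 99.8% ± 0.0493 in liver and 17.5% in muscle, where Fbp1 was within the floor and held 0% with the floor subtracted.

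In other families the member that leads in muscle also held a part of the liver TPM. Pkm held 22.4% ± 5.73 of pyruvate kinase TPM there, Pygm 18.5% of the phosphorylases and Aldoa 11.2% of the aldolases, and these shares include the floor. With 2% of the highest WT tissue mean subtracted from each gene, these liver shares became 8.16% for Pkm, 0% for Pygm and 2.17% for Aldoa. Brown fat and heart also held Pkm (904 and 607 TPM) and Aldoa (2343 and 1603 TPM), which the subtraction does not count. The remaining liver shares of Pkm and Aldoa are therefore uncertain. Pfkm held the largest share of phosphofructokinase in liver as measured (64.4% ± 1.70), and with the floor subtracted it held 23.1% and Pfkl 73.4%, so that the leading member depends on the floor. The families whose leading member did not differ were phosphofructokinases, phosphoenolpyruvate carboxykinases (Pck1), the alpha subunits of AMP-activated kinase (Prkaa2) and acetyl-CoA carboxylases (Acacb). Acacb held 52.9% ± 5.21 in liver and 90.1% ± 1.14 in muscle. Pck1 held 95.5% ± 0.635 in muscle, and 86.3% with the floor subtracted. That subtraction takes off 2% of 1 tissue only, while both liver and brown fat (1464 TPM) held much Pck1, so its lead in muscle is uncertain. In muscle the least uniform family was the phosphofructokinase-2 enzymes, with Pfkfb3 at 39.5% ± 12.1 and Pfkfb1 at 37.8% ± 7.60, which do not differ beyond their spread.

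**Figure D4:**
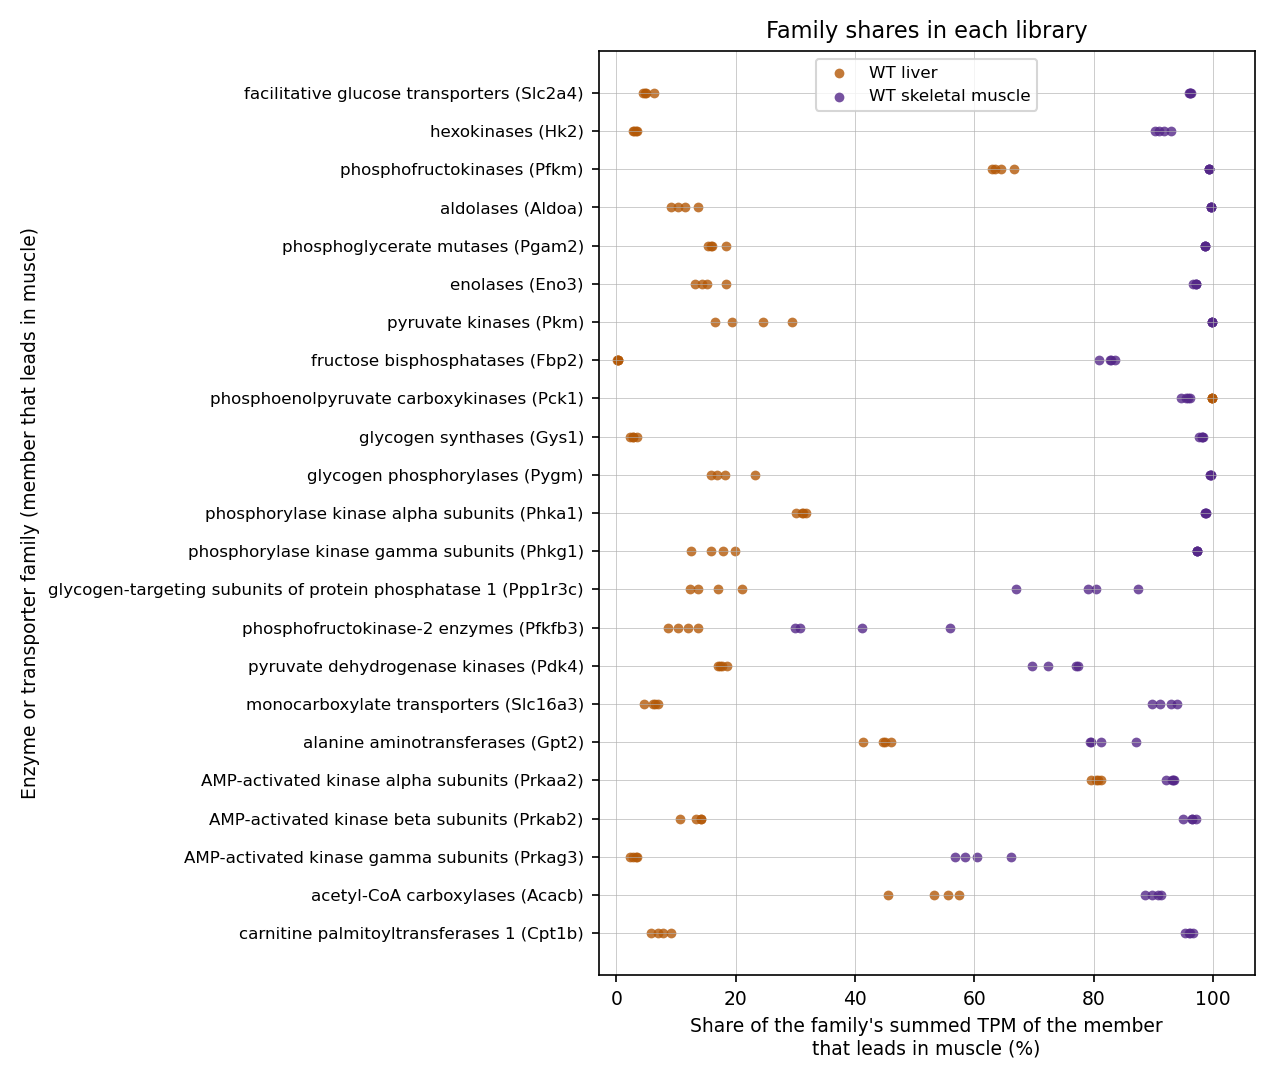
For each family, the share of its summed TPM (x axis, percent) held by the member that leads in skeletal muscle, in each WT liver (orange) and WT muscle (purple) library. Muscle libraries lie to the right of liver libraries in every family except the phosphoenolpyruvate carboxykinases, and liver shares are also above 50% for Pfkm (64.4% on average), Prkaa2 (80.5%) and Acacb (52.9%).

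Some genes were represented by different transcripts in the tissues. Of 71 glucose genes present in both tissues (at least 5 TPM, and at least 5% of the higher tissue), 10 had another most abundant transcript in muscle than in liver, and the genes below were picked from these after their values were seen. Transcript values come from Salmon's split of shared reads and are less certain than gene sums. Slc37a4-201 (chromosome 9, 44398176 to 44402966) was at 122, 194, 189.5 and 185 TPM in liver and at 5.76, 0.985, 0 and 2.69 TPM in muscle. Muscle held Slc37a4-202 (45.3 ± 4.76 TPM) and Slc37a4-207 (34.5 ± 4.46 TPM), which were at 1.92 ± 0.745 and 2.03 ± 1.82 TPM in liver. Slc38a4-205 was at 291 to 306 TPM in liver and 0.251 TPM in muscle, where Slc38a4-201, with a start further upstream, was at 32.4 TPM. Klf15-202 was at 54.6 TPM in liver and 1.80 TPM in muscle, and Klf15-201 at 41.6 and 26.4 TPM.

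Pfkfb1 is a case of different start sites. Pfkfb1-202 (chromosome X, start 150594478) held 68.2% to 76.4% of the gene's TPM in liver and 23.7% to 29.6% in muscle. Pfkfb1-201 (start 150589921) held 6.09% to 12.2% in liver and 47.2% to 56.6% in muscle. The 250 bases before the RefSeq start nearest to each are shown to compare the promoters (chrX:150589666-150589915 for muscle, chrX:150594178-150594427 for liver, GRCm38.p6, plus strand). The promoter used most in muscle held a match to the TATA box letters and a MEF2 site, and the promoter used most in liver held none of the motifs searched. The TATAAA match lay at -193 to -188 from the RefSeq start, against -29 to -24 in G6pc, and the MEF2 site at -113 to -104.
Pfkfb1 start used most in muscle: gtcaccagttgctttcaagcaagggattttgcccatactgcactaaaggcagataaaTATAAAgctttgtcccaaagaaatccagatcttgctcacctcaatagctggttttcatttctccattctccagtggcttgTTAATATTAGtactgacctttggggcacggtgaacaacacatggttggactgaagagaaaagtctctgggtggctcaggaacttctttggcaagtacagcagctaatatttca
Pfkfb1 start used most in liver: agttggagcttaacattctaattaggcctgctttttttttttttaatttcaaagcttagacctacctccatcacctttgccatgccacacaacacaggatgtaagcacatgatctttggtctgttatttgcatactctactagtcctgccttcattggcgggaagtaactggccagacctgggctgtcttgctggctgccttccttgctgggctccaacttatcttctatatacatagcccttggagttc

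Pathways that branch from glucose were mostly higher in liver. All 8 fructose and galactose genes were higher in liver, such as Sord, which makes fructose from sorbitol (1143 ± 67.6 and 55.9 ± 3.23 TPM), and Galk1, which phosphorylates galactose (59.2 ± 9.28 and 2.23 ± 0.131 TPM). Of 7 pentose phosphate genes 5 were higher in liver, led by Tkt (92.7 ± 13.0 and 18.4 ± 2.34 TPM), and Rpia was higher in muscle (difference -1.43). Of 12 genes of fatty acid synthesis 9 were higher in liver, such as Scd1, the desaturase (2706 ± 891 and 132 ± 8.14 TPM), and Srebf1, the regulator that insulin induces (160.0 ± 38.4 and 21.6 ± 2.57 TPM). Acacb, whose product blocks fatty acid entry into mitochondria, was higher in muscle (27.3 ± 11.3 and 53.1 ± 1.25 TPM). All 12 urea cycle and amino acid nitrogen genes were higher in liver with a median difference of 5.93, and for 10 of them muscle was within the floor.

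Most genes of the TCA cycle and the respiratory chain were higher in muscle, while those of fatty acid use were split. Of 16 TCA cycle genes, 13 were higher in muscle, such as Idh3a (51.8 ± 1.53 and 471 ± 12.3 TPM) and Cs, citrate synthase (76.3 ± 7.39 and 400.1 ± 16.3 TPM). Suclg2, the GTP-forming succinyl-CoA ligase subunit (158 ± 10.2 and 46.2 ± 5.95 TPM), and Idh3b (117 ± 8.69 and 21.1 ± 1.04 TPM) were the 2 higher in liver. Of 33 nuclear genes of the respiratory chain, 31 were higher in muscle with a median difference of -0.99. The 2 higher in liver, Cox6a1 and Cox8a, are the forms of cytochrome oxidase subunits that muscle replaces by Cox6a2 and Cox8b. Cox6a1 was at 530.4 ± 48.9 TPM in liver and 62.0 ± 5.61 TPM in muscle, and Cox6a2 at 45.7 ± 1.67 and 1231 ± 118 TPM. Among the NADH shuttles, the aspartate carriers were exchanged, with Slc25a13 at 131 ± 9.94 TPM in liver and 3.14 ± 0.364 TPM in muscle, and Slc25a12 at 12.4 ± 1.17 and 213 ± 9.96 TPM. Genes of fatty acid uptake and oxidation were split 9 to 8, with Fabp1 (9178 ± 1896 and 129 ± 9.31 TPM) on the liver side and Fabp3 (112 ± 8.46 and 1608 ± 276 TPM) on the muscle side. Of 5 ketone genes, 4 were higher in liver, and Oxct1, needed to burn ketones, was higher in muscle, at 9.57 ± 1.43 and 173 ± 21.7 TPM.

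Lists that define the tissues lay at the ends of the scale, where the floor sets the size. All 24 contractile genes and all 12 calcium handling genes were higher in muscle, with medians of -5.93 and -5.59, and liver was within the floor for 20 and 8 of them. All 20 secreted plasma protein genes were higher in liver with a median of 6.16, and muscle was within the floor for all 20. All 12 liver transcription factors and all 9 tested muscle transcription factors were higher in their own tissue, such as Mef2c in muscle (3.01 ± 0.351 and 151 ± 9.03 TPM). Phosphagen and adenylate genes included the creatine kinase Ckm (207 ± 7.53 and 11663 ± 1007 TPM), Ak1 (16.5 ± 1.25 and 869 ± 37.6 TPM) and Ampd1 (10.1 ± 0.606 and 703 ± 106 TPM) on the muscle side. On the liver side stood Gamt, the last step of creatine synthesis (257 ± 21.1 and 11.4 ± 1.79 TPM). Secreted factors were split 5 to 5, with Igf1 (389 ± 31.3 and 8.26 ± 0.809 TPM) and Angptl8 (38.2 ± 13.1 and 0.777 ± 0.242 TPM) higher in liver and Mstn, which limits muscle growth (0.569 ± 0.0548 and 43.8 ± 8.20 TPM), and Fndc5 (1.79 ± 0.496 and 29.7 ± 5.59 TPM) higher in muscle.

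**Figure D5:**
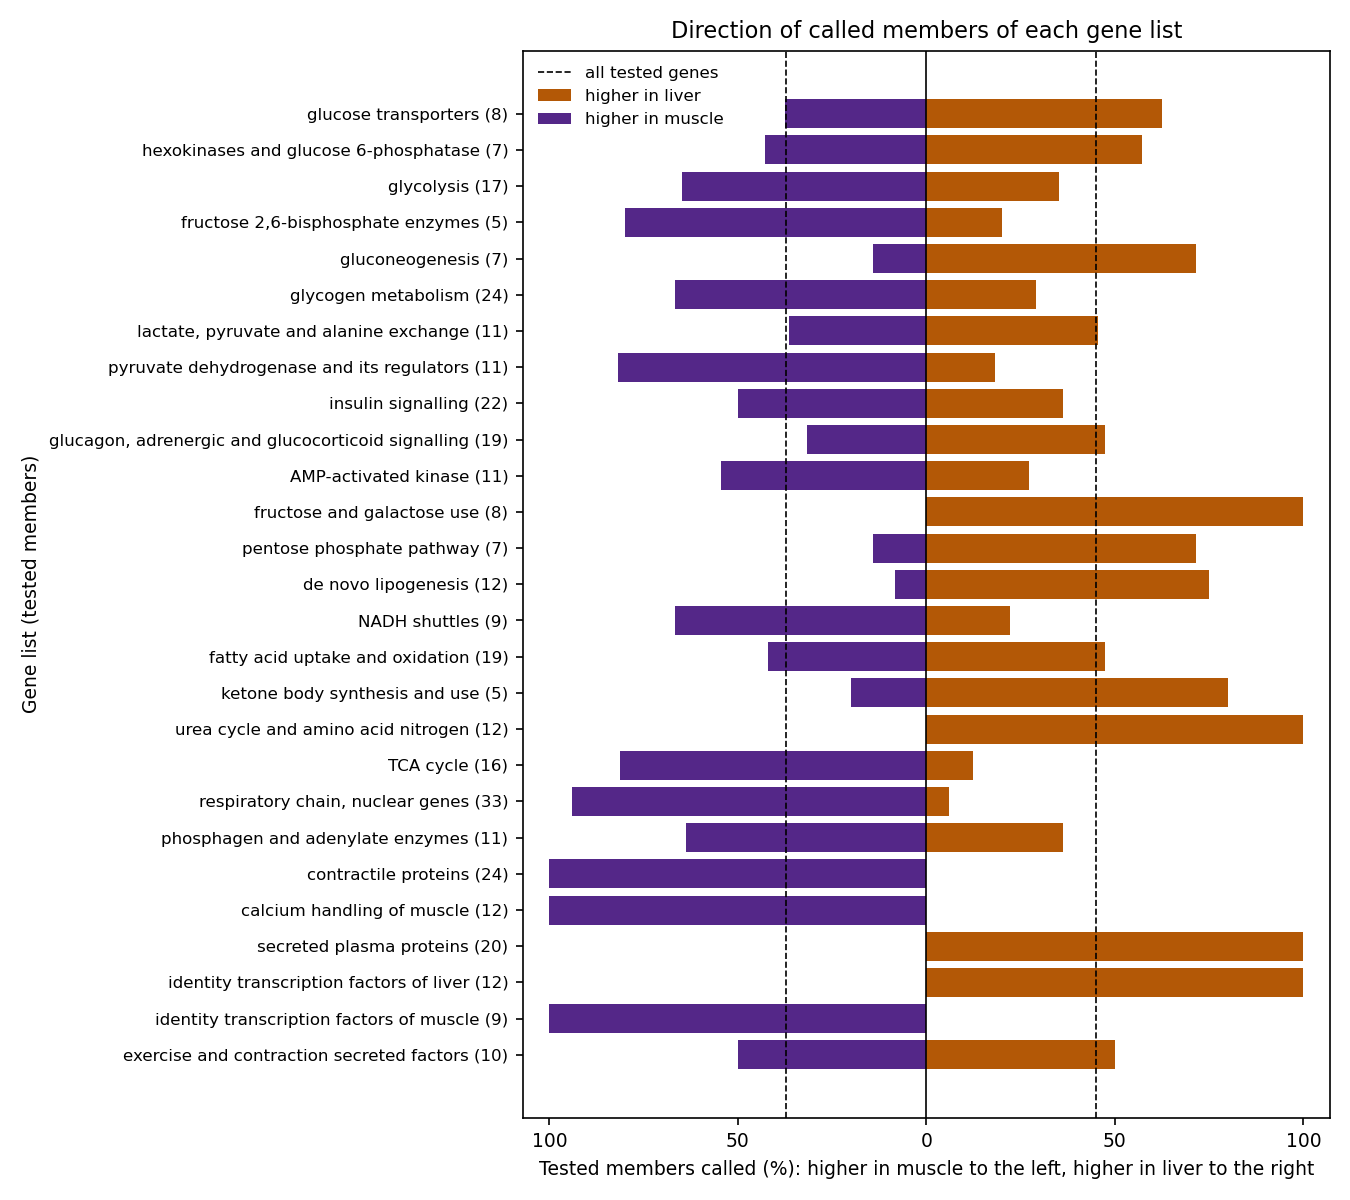
For each of 27 gene lists, the percentage of tested members (number in parentheses) called higher in WT liver (orange, to the right) and higher in WT skeletal muscle (purple, to the left). The dashed lines mark all tested genes, 45.1% higher in liver and 37.1% higher in muscle, and the respiratory chain (31 of 33 higher in muscle) and the urea cycle (12 of 12 higher in liver) lie far from them.

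The largest difference of all was that of Gm48275, a gene with a provisional name, at 129 ± 16.9 TPM in liver and listed at 0 in the 4 muscle libraries. With provisional names left out, the largest differences were of plasma and carrier proteins in liver, such as Apoa1 (6.58, SE 0.10), the urinary protein Mup3 (6.54) and Rbp4 (6.32), and of fast fibre proteins in muscle, such as Pvalb (-6.17, SE 0.10), Myot (-6.16) and the calcium pump Atp2a1 (-6.15). Mup genes share long stretches of sequence, so their single values are uncertain. Genes whose lower tissue reached 10% of the higher one were also ranked. The largest differences in liver among them were of Ppib (244 ± 37.3 and 24.7 ± 1.16 TPM), Shmt2 (153 ± 11.3 and 15.7 ± 1.29 TPM), Slc25a5 (528 ± 61.8 and 57.0 ± 1.03 TPM), and Slc25a39, all between 3.17 and 3.24. Those in muscle were of Sgk1, a kinase of the insulin pathway (13.8 ± 2.03 and 135 ± 29.1 TPM), Idh3a, the methyltransferase Smyd2, Bpgm (7.71 ± 0.701 and 74.5 ± 2.82 TPM) and Rhoq, a GTPase linked to GLUT4 traffic (7.60 ± 0.685 and 72.3 ± 3.53 TPM), between -3.18 and -3.09. The floor follows the highest of the 4 tissues, and for Idh3a that was brown fat (897 TPM), with liver at 5.78% of it. Smim30 itself (2610001J05Rik) was at 23.2 ± 3.55 TPM in liver and 34.3 ± 1.2 TPM in muscle in WT (difference -0.55), and the difference in the libraries labelled Mut was -0.29.

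The spread among animals was uneven. Over 82 glucose genes with at least 10 TPM and more than 5% of the highest tissue, the median coefficient of variation was 11.3% in liver, and over 83 such genes it was 8.07% in muscle. In liver the most variable were Sik1 (47.3%), Pck1 (42.0%), G6pc (38.4%), Slc38a2 (32.9%) and Pklr (31.8%), and in muscle Pfkfb3 (53.1%), Ppp1r3c (46.0%), Klf15 (36.4%), Pik3r1 (27.2%) and Pdk4 (23.2%). Several of these are known to respond within hours to hormones or feeding, and the labels give no time of collection. Igfbp1, which insulin represses, read 25.5, 39.5, 39.7 and 175 TPM in liver, and the 175 TPM was in library 4, which also held the highest G6pc.

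Both tissues also hold other cell types, and in bulk RNA fewer cells of a type and less RNA per cell cannot be told apart. The summed level of 6 Kupffer cell markers was 38.0 to 156 TPM in liver and 9.5 to 11.9 TPM in muscle, and liver library 4 was the highest. General macrophage markers summed to 25.1 to 81.2 TPM in liver and 19.2 to 24.4 TPM in muscle, and the highest was again liver library 4. Fibroblast markers were higher in muscle for 6 of 6 (311 to 374 TPM summed, against 95.9 to 135), as were 5 of 5 tested smooth muscle markers (129 to 159 TPM against 17.7 to 21.4) and 4 of 4 tested Schwann cell markers (26.8 to 33.3 TPM against 4.07 to 6.73). Of 6 endothelial markers 4 were higher in muscle and Kdr in liver, though the Kdr libraries of the tissues overlapped. Of 5 markers of liver sinusoidal endothelium 4 were higher in liver and 0 in muscle (57.4 to 97.8 TPM summed, against 10.5 to 14.4). The Stab2 libraries of the tissues overlapped (8.82 ± 2.38 TPM in liver and 6.05 ± 1.05 TPM in muscle). Lyve1 was not called (4.03 ± 1.62 and 3.07 ± 0.742 TPM). Red blood cell markers summed to 1226 to 1568 TPM in liver and 545 to 781 TPM in muscle. White adipocyte markers summed to 51.8 to 94.8 TPM in liver and 59.6 to 108 TPM in muscle, and 3 of 6 (Adipoq, Lep and Retn) were higher in muscle. As shares of their brown fat level, the 6 markers ranged in muscle from 2.29% (Plin1) to 10.7% (Retn) and in liver from 1.85% (Plin1) to 3.5% (Cidec). Cardiomyocyte markers summed to 262 to 282 TPM in liver and 289 to 412 TPM in muscle, with 412 TPM in muscle library 3. Lymphocyte markers stayed at or under 3 TPM summed, satellite cell markers at or under 6.74 TPM, and Pax7 was listed at 0 in all liver libraries. The part of these cells in the gene differences above was not tested, and leaving out liver library 4 or muscle library 3 left 53 and 53 glucose genes higher in liver and 75 and 74 higher in muscle.

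The same contrast in the Mut libraries, which share no sample with the WT libraries, gave 80.9% of 12658 genes called, 46.2% higher in liver and 34.7% higher in muscle. Of the 12255 genes tested in both genotypes, 10096 were called in WT, 9306 were called in both with the same direction and 6 in both with opposite directions. Among the glucose genes, 53 were higher in liver and 67 in muscle in Mut, 116 were called in the same direction in both genotypes and none in opposite directions. The differences of Slc2a2 (5.86 in Mut), Slc2a4 (-4.70), Hk2 (-4.22), G6pc (5.75), Pck1 (4.91), Fbp1 (6.23), Pygm (-5.95) and Pdk4 (-3.87) had the signs of the WT values given above. Bsg, the partner of the lactate transporters, differed by -0.60 in WT and -0.24 in Mut. Ugp2 (-0.68 in WT), Mpc1 (-0.37), Slc16a1 (-0.47) and Pfkfb1 (-0.51) were called in WT and not in Mut (-0.24, 0.01, 0.03 and -0.19), and the differences between the genotypes were not tested.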

How the data were processed

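RNA of WT liver and skeletal muscle (4 libraries each) was compared, with 4 and 4 Mut libraries as a separate set. Libraries were strand-specific Illumina libraries of total RNA, per the labels' protocols. The deposited values are TPM of single transcripts, and Salmon is the tool named in the submitters' processing notes. No version or genome build was found in the sources used here. Because TPM drops the read totals, depth is unknown and intervals for counting error cannot be given. Of 147493 transcripts, 92.26% were matched to GENCODE M21 (GRCm38) by identifier and summed to 51510 genes, and the unmatched rest held 0.606% to 0.856% of the TPM of the 8 WT libraries. Differences of log2(TPM + 1) were tested with limma 3.58.1 (R 4.3.3, with a mean-variance trend) over genes whose mean in the 8 libraries reached 1 TPM, with Benjamini-Hochberg adjustment. The labels give 4 individual males per tissue and do not say whether equal replicate numbers mark the same mouse, and the groups were fitted as unpaired. On simulated data with 12367 genes, 82% of 100 genes changed by 1 on the log2 scale, 95% of 100 changed by 2, and 0.074% of unchanged genes were called. All 8 simulated libraries were drawn from the WT liver means and spread, and only 200 genes were changed. These rates therefore do not cover the muscle spread or the far larger share of genes called here. The genes and lists were chosen with earlier results of these data known. Any gene of the 11 glucose lists, the isoenzyme families and the cell type markers could be named, with up to 4 genes per direction by smallest p from each other list, the 12 largest differences per direction, the 5 largest per direction with the lower tissue at 10% or more of the higher, the 10 most abundant nuclear genes per tissue, and Smim30. Genes with provisional names were left out of the 12 largest, and Gm48275 was named after its value was seen. Some members of the lists are counted but not reported here by name. Ldhb and Gbe1 were left out because their annotated principal transcripts are not among the rows used. Alternatives covered the pseudocount, the filter, the scaling, the model, the threshold, the floor and each library left out.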

Additional observations from a re-analysis of the deposited data

Results flagged for a closer look

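In 17 of 216 groups of 4 libraries (a glucose gene in 1 WT tissue), the highest or lowest library stood far from the other 3 relative to the range of the group, where chance gives about 1 in 20. Not every group of the 146 glucose genes was among the 216. In liver library 1, Ldha was at 578 TPM (726 to 741 in the others) and Gpt at 239.7 TPM (341 to 346). In liver library 2, Pgam2 was at 28.4 TPM (26.4 to 26.7), Ppp1r3a at 1.44 TPM (1.26 to 1.28) and Epm2a at 6 TPM (4.39 to 4.43). In liver library 3, Gyg was at 8.87 TPM (10.3 to 10.5), Mpc2 at 346 TPM (280.0 to 284), Slc38a3 at 821 TPM (985 to 1007), Gcgr at 227 TPM (194 to 199) and Hsd11b1 at 565 TPM (517 to 524). In liver library 4, Slc2a8 was at 9.76 TPM (12.1 to 12.5) and Aldoa at 402 TPM (391 in each of the others). In muscle library 1, Slc2a2 was at 1.82 TPM (2.66 to 2.83). In muscle library 4, Slc2a4 was at 379.6 TPM (324 to 332), G6pc at 4.18 TPM (3.90 to 3.92), Gaa at 90.3 TPM (71.9 to 74.9) and Gpt at 22.3 TPM (28.0 to 28.6). For Slc2a2, G6pc, Pgam2 and Ppp1r3a the standing-out library belongs to the tissue whose level lay within the floor.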

How the results depend on the processing

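Across the alternatives, the counts of called genes in both directions, WT and Mut, stayed within 1.5 times the values given. Leaving out each library in turn gave 9930 to 10182 genes called in WT, 52 to 54 glucose genes higher in liver and 73 to 75 higher in muscle, and 18 to 19 isoenzyme families with another leading member. A minimum of 5 TPM left 7183 genes called, and no minimum gave 13802. The floor limit decided which genes counted as within it: at 1% in place of 2%, 67 genes higher in liver and 27 higher in muscle were within the floor, and at 5%, 1071 and 786. Whether equal replicate numbers mark the same mouse cannot be decided from the values, since 2 tissues of 1 mouse need not deviate alike. The deviations of same-numbered WT liver and muscle libraries correlated at -0.0809 to 0.0637, and no WT liver correlated best with its own number. Each Mut liver did correlate best with its own number, at 0.0112 to 0.0531. With the replicate number as a block, 10156 genes were called in WT and 10014 in Mut. Single genes were followed for 108 of the 146 glucose genes, and 96 of these kept direction and call in all 19 alternatives. The direction reversed with rescaling without mitochondrial and top genes for Pck2 (-0.19), Pgm2 (-0.04), Akt1 (-0.05) and Prkacb (-0.39), which follows from the shift of all genes. Prkacb was at -0.12 with median-ratio scaling. With 1 library left out Prkacb ranged from -0.04 to 0.06 (-0.03, -0.00 and -0.04 without liver library 1, liver library 2 and muscle library 3) and Ptpn1 from -0.14 to 0.13 (0.03, 0.02 and 0.13 without liver library 2, muscle library 2 and muscle library 4), and neither was called. Several genes given as not called depend on the scaling and were called higher in muscle with median-ratio scaling and with rescaling, namely Nr3c1 (-0.19 and -0.47), Mpc2 (-0.23 and -0.51), Irs2 (-0.28 and -0.55) and Prkaa1 (-0.25 and -0.51), or with rescaling alone of these scalings, namely Stk11 (-0.47) and Slc38a2 (-0.64). Calls were also gained by Pck2 without liver library 1 (0.26), Mpc2 without liver library 3 (-0.17), Slc38a2 without liver library 4 (-0.41) and Irs2 without muscle library 1 (-0.23). Counting Ldhb and Gbe1, chosen after seeing the data, gave 54 and 75 glucose genes higher in liver and muscle. The unknown depth limits what can be said of genes at a few TPM.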
